A study of Mus musculus with 8 samples.

Results

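The genes of caveolae were followed in mouse notochord-derived cells (NDCs): the 3 caveolins Cav1, Cav2 and Cav3, the 4 cavins Cavin1, Cavin2, Cavin3 and Cavin4, and 3 proteins of the caveola neck, Ehd2, Pacsin2 and Pacsin3. They were chosen by name for their place in the caveola, with earlier results of these data known. These 10 genes were found among the 43346 gene identifiers counted. RNA was sequenced from Shh-cre;ROSA:YFP mice, in which Shh-expressing notochord cells and their descendants carry YFP, at embryonic day 12.5 (E12.5) and at birth (P0), with 4 litters at each stage. At E12.5 intact notochords were freed by dissection, without sorting, and put directly into lysis reagent, whereas the P0 nucleus pulposus (NP) cells were shaken from opened thoracic and lumbar discs, strained and sorted for YFP, so that stage and isolation cannot be told apart. Animals of both stages carried the same Cre driver and reporter. Each library pooled the animals of 1 litter, named NDP10.2, NPD3, NPD4 and NPD9.2 at E12.5 and NPD26, NPD27, NPD28 and NPD30 at P0.

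Caveolae are small flask-shaped pits of the plasma membrane. Caveolins are inserted in the inner leaflet and form the bulb, cavins assemble as a coat on its cytoplasmic face, and the ATPase EHD2 and the F-BAR proteins of the PACSIN family act at the neck. Caveolae flatten when the membrane is stretched and so give up membrane to the cell. The large vacuolated cells of the vertebrate notochord are rich in caveolae, and the NP that descends from the notochord is the gel-like, load-bearing core of the intervertebral disc.

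Reads counted on genes ranged from 4442775 to 7180221 per library at E12.5 and from 6371842 to 8904050 at P0. Levels are given as CPM (counts scaled to a common library size, itself adjusted by the trimmed mean of M values, TMM). Scaled by the reads on genes alone, without TMM, 3 counts corresponded to 0.337 to 0.675. With TMM, 3 counts corresponded to 0.708 CPM in NDP10.2, 0.738 CPM in NPD9.2 and 0.353 CPM in NPD28. Of the 10 genes, 9 passed the filter on low counts and Cav3 did not. Brachyury (T), the defining transcription factor of notochord cells, was present in every library, at 242 to 942 CPM at E12.5 and 574 to 2323 CPM at P0, whereas Noto, another notochord factor, had 0 to 3 counts per library. Other cell types were also represented. Summed, 3 primitive erythroid markers reached 8120 to 32815 CPM at E12.5 and 2.12 to 7.07 CPM at P0. The 6 neutrophil markers summed to 4.01 to 14 CPM at E12.5. At P0 they summed to 680, 720, 6654 and 921 CPM in NPD26, NPD27, NPD28 and NPD30. The summed level of 9 skeletal muscle markers was 655 to 2873 CPM at E12.5 and 48.7 to 179 CPM at P0. The summed level of 7 leukocyte markers was 39.4 to 81.9 CPM at E12.5 and, at P0, 2230, 2608 and 2366 CPM in NPD26, NPD27 and NPD28 but 203 CPM in NPD30. The 6 osteoblast markers summed to 29.4 to 84.1 CPM at E12.5 and 324 to 671 CPM at P0. In such bulk samples, fewer cells of a type and less RNA per cell cannot be told apart.

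The sequence just upstream of the start site is shown for the 6 genes whose mRNA abundance differed between the stages, as 250 bases of the RefSeq promoter table on build GRCm38.p6, written 5′ to 3′ on the strand of the gene. Capitals mark matches, on either strand, to 8 short motifs: the GC box GGGCGG, the CCAAT box CCAAT, the TATA box TATAAA, the TEAD motif GGAATG, the AP-1 motif TGACTCA, the forkhead motif TGTTTAC, the Sox motif ACAAAG and the T-box motif AGGTGT.
Cav1 (chr6:17306085-17306334, plus strand): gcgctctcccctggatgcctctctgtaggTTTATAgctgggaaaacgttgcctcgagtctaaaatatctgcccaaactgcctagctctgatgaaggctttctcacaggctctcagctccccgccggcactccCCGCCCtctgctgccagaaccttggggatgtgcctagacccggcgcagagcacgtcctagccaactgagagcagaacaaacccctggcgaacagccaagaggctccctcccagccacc
Cav2 (chr6:17280935-17281184, plus strand): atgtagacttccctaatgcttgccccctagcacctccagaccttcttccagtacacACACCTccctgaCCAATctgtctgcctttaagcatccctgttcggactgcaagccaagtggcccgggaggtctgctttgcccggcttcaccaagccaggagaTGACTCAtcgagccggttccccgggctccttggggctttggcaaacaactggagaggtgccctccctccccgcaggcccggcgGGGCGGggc
Cavin1 (chr11:100970618-100970867, minus strand): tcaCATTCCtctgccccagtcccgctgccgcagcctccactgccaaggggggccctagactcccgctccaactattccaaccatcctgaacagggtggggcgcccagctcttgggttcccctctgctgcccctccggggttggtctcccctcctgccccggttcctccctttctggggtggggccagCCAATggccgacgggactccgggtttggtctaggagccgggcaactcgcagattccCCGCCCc
Cavin2 (chr1:51288876-51289125, plus strand): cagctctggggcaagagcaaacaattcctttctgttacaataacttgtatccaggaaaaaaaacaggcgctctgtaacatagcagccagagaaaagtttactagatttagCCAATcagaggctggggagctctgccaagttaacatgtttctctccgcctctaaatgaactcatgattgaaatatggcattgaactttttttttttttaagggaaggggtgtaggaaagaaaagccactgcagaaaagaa
Pacsin2 (chr15:83464607-83464856, minus strand): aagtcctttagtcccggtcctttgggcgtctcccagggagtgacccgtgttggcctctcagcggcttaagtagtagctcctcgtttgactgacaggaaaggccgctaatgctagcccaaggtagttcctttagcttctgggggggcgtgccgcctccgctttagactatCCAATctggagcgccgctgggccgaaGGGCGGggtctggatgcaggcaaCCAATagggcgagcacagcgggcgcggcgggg
Cavin4 (chr4:48663264-48663513, plus strand): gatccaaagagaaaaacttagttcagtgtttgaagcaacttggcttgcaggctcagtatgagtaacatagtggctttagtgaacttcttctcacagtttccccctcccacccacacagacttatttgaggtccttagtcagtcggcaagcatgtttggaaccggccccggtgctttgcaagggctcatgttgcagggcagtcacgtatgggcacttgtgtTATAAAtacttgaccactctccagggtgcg
The search covered 300 bases, the 250 printed and the 50 after the start site, so that a match may run past the printed end. The table gave 2 start sites each for Cav1 and Cavin1 and 3 for Pacsin2, and the first of each is shown. The window of the second Cav1 site held none of the 8 motifs, and that of the second Pacsin2 site held the AP-1 motif and, after the start site, a CCAAT box. A GC box, present in 35.7% of all 32851 promoter windows, was found in the windows of Cav1, Cav2, Cavin1 and Pacsin2, and a CCAAT box, present in 37.4% of all windows, in those of Cav2, Cavin1, Cavin2 and Pacsin2. Cavin4, the muscle cavin, had neither and held a TATA box, which 13.6% of all windows held, starting 30 bases before its start site. The Cav1 window also held a TATA box match, on the opposite strand, with its first base at -221. Of the 6 windows shown, that of Cavin1 alone held the TEAD motif, present in 14.7% of all windows. Of the 6 windows shown, that of Cav2 alone held the AP-1 motif, present in 5.2% of all windows, and a T-box motif, present in 13.7%. No forkhead or Sox motif lay in the 6 windows shown. These matches are descriptions of the letters and not sites of factor binding.

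Both caveolins of non-muscle cells were significantly more abundant as mRNA at P0 than at E12.5. Cav1 encodes the scaffold without which caveolae do not form outside muscle. Its gene spans bases 17306335 to 17341452 of chromosome 6 (GRCm38, plus strand). Cav1 measured 121, 79.4, 29.5 and 70.3 CPM in NDP10.2, NPD3, NPD4 and NPD9.2 and 480, 292, 509 and 1213 CPM in NPD26, NPD27, NPD28 and NPD30. Every P0 litter lay above every E12.5 litter, with NPD30 far above the other P0 litters. The mean rose from 75.1 ± 37.5 to 623 ± 405 CPM (SD, n = 4 per stage). The fitted change was 8.32-fold, a log2 fold change of 3.06 with a standard error of 0.53 and a 95% interval of 1.88 to 4.23 (adjusted p = 0.00232, edgeR quasi-likelihood F-test). Without NPD30 the log2 fold change of Cav1 was 2.47, and it remained past the threshold.

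Cav2, which assembles with Cav1 and needs it to reach the cell surface, lies on the same strand of chromosome 6, from base 17281185 to 17289115, with 17219 bases between its end and the start of Cav1. In the same order of libraries, Cav2 measured 26.7, 24, 6.04 and 11.8 CPM at E12.5 and 72.3, 57.1, 99.5 and 214 CPM at P0. The litters of the 2 stages did not overlap and NPD30 was again the highest. Mean Cav2 rose from 17.1 ± 9.82 to 111 ± 70.9 CPM (SD, n = 4), with a log2 fold change of 2.70 ± 0.55 (SE) and an adjusted p of 0.00508 by the edgeR test. Without NPD30 the log2 fold change of Cav2 was 2.13. The span of the antisense gene Gm15581 contains Cav1 and Cav2 but shares no exon base with either, and whether the counting used strand is not given in the sources used here.

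Cav3, the caveolin of striated muscle, was near the limit of detection. Its counts were 23, 3, 5 and 15 at E12.5, and the P0 libraries held 1, 14, 0 and 1. The stages overlapped, since NPD27 held 14 counts while NPD3 and NPD4 held fewer. Cav3 was not tested, and when every gene with a count was kept its log2 fold change was -2.11 ± 0.99 (SE) with an adjusted p of 0.151 (edgeR). The summed skeletal muscle markers were highest among the P0 litters in NPD27, at 179 CPM. Their part in the Cav3 level was not tested.

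Cavin1, Cavin2 and Cavin4 differed between the stages, and Cavin4 moved in the direction opposite to Cavin1 and Cavin2. Cavin1 (bases 100956733 to 100970887 of chromosome 11, minus strand) is the core coat protein that caveolae require. It measured 93.7, 44.5, 26.1 and 88.5 CPM at E12.5 and 162, 129, 212 and 346 CPM at P0. The lowest P0 value of Cavin1 lay above the highest E12.5 value. Cavin1 rose by a log2 fold change of 1.75 ± 0.44 (SE), or 3.37-fold, with an adjusted p of 0.0139 (edgeR). Without the E12.5 litter NPD3 the adjusted p of Cavin1 was 0.0509 at a log2 fold change of 1.58, and without NPD30 the change was 1.38.

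Cavin2 (bases 51289126 to 51302960 of chromosome 1, plus strand) binds phosphatidylserine and recruits Cavin1 to the membrane. Cavin2 measured 19.1, 17.6, 10.9 and 30.7 CPM at E12.5 and 50.6, 56.7, 56.7 and 108 CPM at P0. NPD26, NPD27 and NPD28 were close together, above all E12.5 litters, and NPD30 stood apart. The log2 fold change of Cavin2 was 1.81 ± 0.36 (SE), with an adjusted p of 0.00397 (edgeR).

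Cavin3, a coat protein that also binds protein kinase C delta, measured 68.6, 27.1, 19.5 and 51.4 CPM at E12.5 and 88.4, 72.4, 60.6 and 166 CPM at P0. NDP10.2 reached above NPD28, so the stages overlapped. The log2 fold change of Cavin3 was 1.22 with a 95% interval of 0.25 to 2.19 and an adjusted p of 0.0613 in the edgeR test, and Cavin3 was not called. It passed the threshold with DESeq2, at an adjusted p of 0.0316, and without NDP10.2, at 0.0383. Cavin3 shares 374 exon bases, 22.5% of its exon length, with the later-annotated gene Gm45667.

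Cavin4 (bases 48663514 to 48673502 of chromosome 4, plus strand) is the cavin of heart and skeletal muscle. Its counts were 10, 12, 33 and 30 at E12.5, against 2, 8, 7 and 4 at P0, and it passed the low-count filter through the E12.5 libraries. In CPM these were 2.36, 2.34, 3.99 and 7.38 at E12.5 and 0.315, 1.15, 0.824 and 0.606 at P0, with no overlap. Cavin4 fell by 2.42 on the log2 scale (SE 0.62, adjusted p = 0.0143, edgeR). Since its high group let it into the filtered table, the fit that kept every gene with a count is given too, and its adjusted p was 0.0243 at the same log2 fold change. The P0 values rest on 2 to 8 counts. Without NPD9.2 the adjusted p was 0.0503, at a log2 fold change of -2.01. Muscle markers also differed. Of 8 tested skeletal muscle markers 6 were lower at P0 and none was higher (all tested genes: 12.0% lower and 16.0% higher). The muscle sum was highest at E12.5 in NPD9.2 and at P0 in NPD27, the litters with the most Cavin4 at each stage. The order was not shared throughout. NPD4, second at E12.5 for Cavin4, had the lowest muscle sum of that stage, 655 CPM, and NDP10.2 had 1961 CPM with 2.36 CPM of Cavin4. The part of muscle RNA in the fall of Cavin4 was not tested.

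Of the neck proteins, Pacsin2 was called. Pacsin2 (bases 83375607 to 83464606 of chromosome 15, minus strand) bends membrane and recruits dynamin to caveolae. It measured 51.7, 43.5, 37.7 and 43.8 CPM at E12.5 and 70.4, 97.3, 113 and 101 CPM at P0, with NPD28 the highest. The litters within a stage were closer together than for any caveolin, and the stages did not overlap. Pacsin2 rose by a log2 fold change of 1.12 ± 0.22 (SE), with an adjusted p of 0.0042 (edgeR), but relative to Brachyury its change was -0.10.

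Ehd2, the ATPase that holds caveolae at the surface, measured 118, 53.5, 26.1 and 73.8 CPM at E12.5 and 82.7, 71.4, 192 and 276 CPM at P0. NDP10.2 lay above both NPD26 and NPD27. The log2 fold change of Ehd2 was 1.20, with a 95% interval of 0.02 to 2.38 and an adjusted p of 0.12 (edgeR). Pacsin3, the PACSIN enriched in muscle, measured 16.3, 15.8, 7.98 and 15.5 CPM at E12.5 and 25.5, 9.66, 21.1 and 53.5 CPM at P0. NPD27 fell within the E12.5 range. The log2 fold change of Pacsin3 was 0.99, with a 95% interval of -0.04 to 2.02 and an adjusted p of 0.142 (edgeR), and without NPD27 it was 1.28 with an adjusted p of 0.0394. Neither Ehd2 nor Pacsin3 was called with all 8 libraries.

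**Figure D1:**
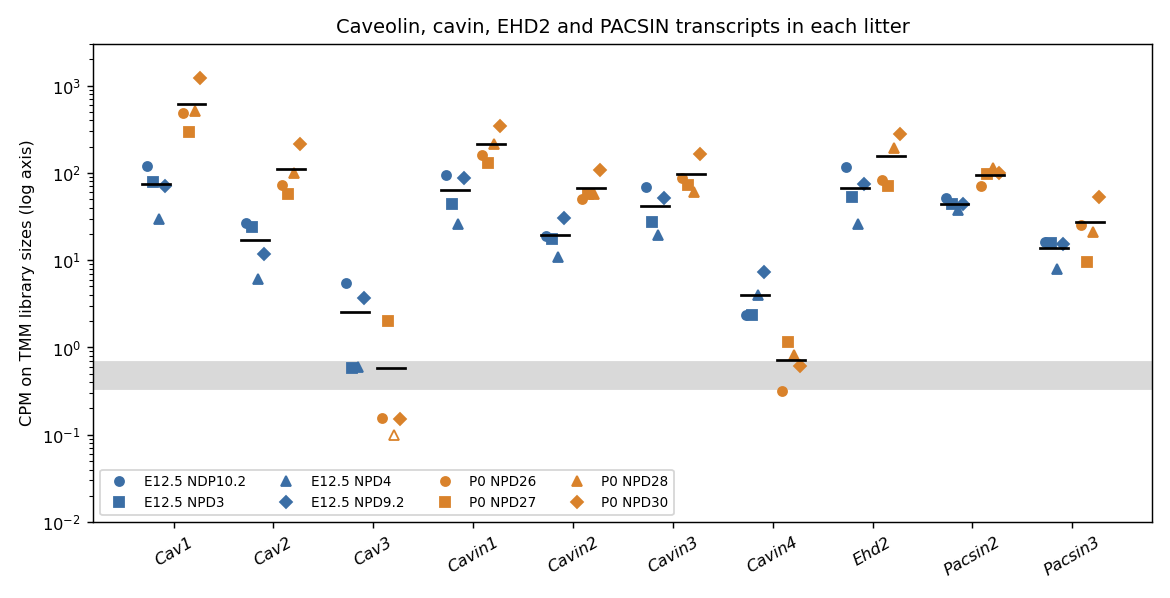
CPM of the 10 genes in each litter (log axis), with 1 symbol per litter and black lines at the stage means (n = 4). The grey band marks 3 counts scaled without TMM, 0.337 to 0.675, whereas the plotted CPM include TMM. Cav1 at P0 runs from 292 to 1213 CPM against 29.5 to 121 CPM at E12.5, while Cav3 and Cavin4 lie at the foot of the plot; the open triangle marks a count of 0.

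In all, 5 of the 9 tested genes (Cav1, Cav2, Cavin1, Cavin2 and Pacsin2) were higher at P0, where 16.0% of all 15467 tested genes were higher, and 1 (Cavin4, admitted through its E12.5 counts) was lower, where 12.0% of all tested genes were lower. With at least 10 counts required in every library, Cavin4 was not tested and 0 members were lower. The same 5 genes had every P0 litter above every E12.5 litter, a pattern found in 15.5% of all tested genes, and Cavin4 had the reverse pattern, found in 14.4%. The median log2 fold change was 1.22 over the 9 tested members and 0.04 over all genes tested. A larger log2 fold change than that of Cav1 was measured for 4.81% of tested genes. For Cav2 that share was 5.78%, for Cavin1 10.4% and for Pacsin2 17.4%.

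**Figure D2:**
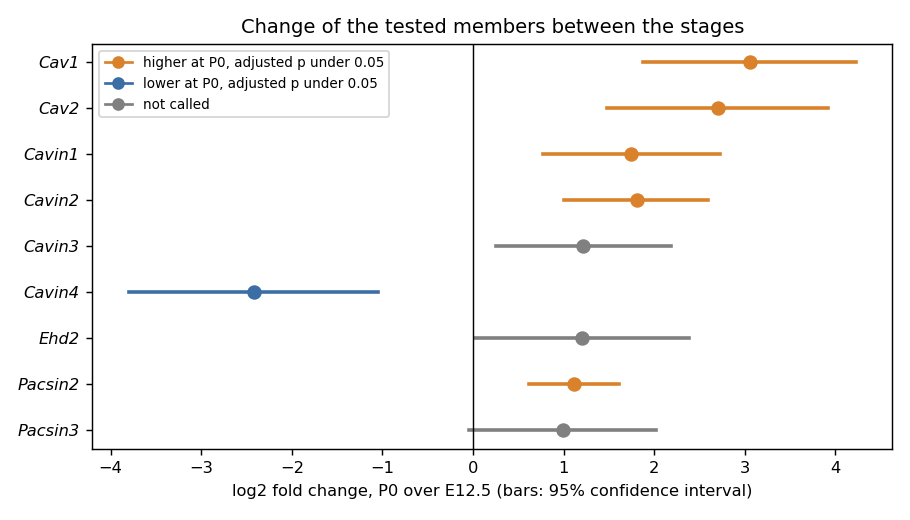
Log2 fold change of the 9 tested genes, P0 over E12.5, with bars for the 95% confidence interval of the edgeR fit and colour for the call at an adjusted p under 0.05. Cav1 at 3.06 and Cav2 at 2.70 have the largest values and Cavin4, at -2.42, is the 1 gene below 0; relative to Brachyury, Ehd2, Pacsin2 and Pacsin3 also fall below 0.

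Levels of different genes were compared as CPM per kilobase of exon. At E12.5 Cavin3, Cav1 and Cavin1 led, at 25.1 ± 13.6, 21.8 ± 10.9 and 17.6 ± 9.24 CPM per kilobase (SD, n = 4), and their order was not tested. Cavin3 lay above Cavin1 in every E12.5 litter, whereas Cav1 lay above Cavin3 in NPD3 and below Cavin1 in NPD9.2. With the length of the longest transcript in place of all exons, Cav1 came first at E12.5, at 27.3 CPM per kilobase. At P0 Cav1 stood first at 181 ± 118 CPM per kilobase, followed by Cavin1 at 59.2 ± 26.7, Cavin3 at 58.2 ± 28.5 and Cav2 at 33.2 ± 21.2. Cav2 had been seventh at E12.5, at 5.14 ± 2.94 CPM per kilobase. Cav3 and Cavin4 were the lowest at both stages, with means of 2.23 and 1.96 CPM per kilobase at E12.5 and 0.503 and 0.353 at P0.

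The summed level of the 10 genes was 50 to 160 CPM per kilobase at E12.5 and 238 to 735 at P0. Cav1 accounted for 22, 25.8, 17.1 and 16.6% of that sum at E12.5, against 44.6, 35.6, 41.3 and 47.9% at P0, without overlap. The mean share of Cavin1 was 16.2% at E12.5 and 14.8% at P0, and that of Cavin3 was 23.1% and 14.8%. Cavin2 held 6.41% and 5.78%.

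**Figure D3:**
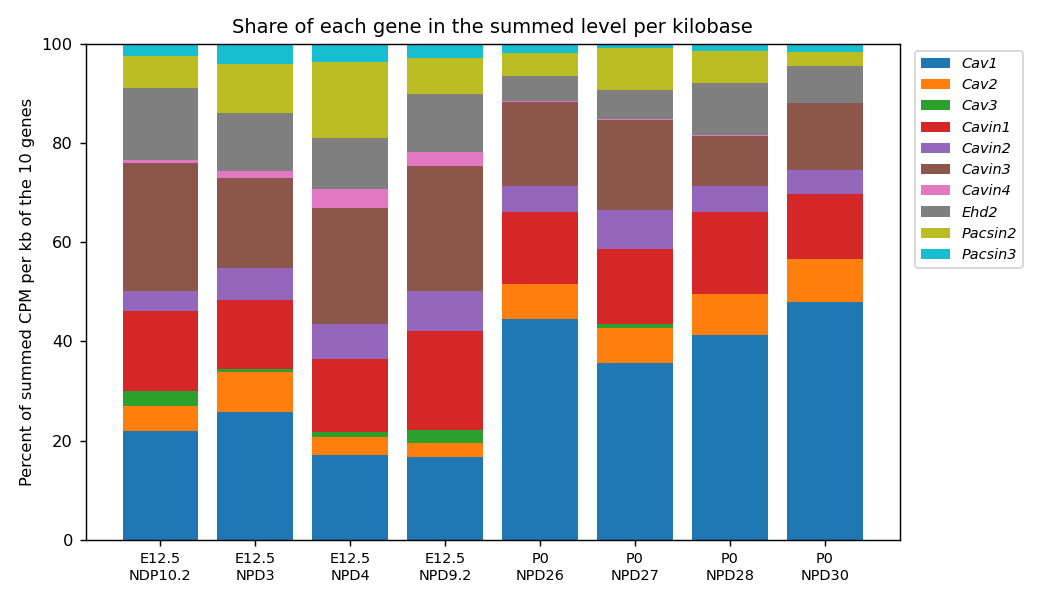
Percent of the summed CPM per kilobase of the 10 genes held by each gene, 1 bar per litter. The Cav1 segment spans 16.6 to 25.8% in the E12.5 litters and 35.6 to 47.9% in the P0 litters.

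Whether Cav2, Cavin1, Ehd2 and Pacsin2 changed as much as Cav1 was asked with the log2 ratio of each to Cav1 within a library. Such a ratio does not depend on scaling, but it can vary with the mix of cells, whose part was not tested. The log2 ratio of Cav2 to Cav1 was -2.17, -1.71, -2.23 and -2.54 at E12.5, against -2.72, -2.35, -2.35 and -2.50 at P0. The stages overlapped, and the difference of -0.32 was not significant (two-sided exact permutation test, p = 0.171).

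Cavin1, Ehd2 and Pacsin2 changed less than Cav1. The log2 ratio of Cavin1 to Cav1 fell from -0.26 ± 0.48 to -1.45 ± 0.29 (SD, n = 4 per stage). The ratio of Ehd2 to Cav1 fell from -0.18 ± 0.28 to -2.02 ± 0.47 and that of Pacsin2 to Cav1 from -0.60 ± 0.68 to -2.52 ± 0.85. For these 3 ratios every P0 litter lay below every E12.5 litter, with an exact permutation p of 0.0286 each, the smallest that 4 against 4 litters can give, and 0.0381 after adjustment over the 4 ratios.

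**Figure D4:**
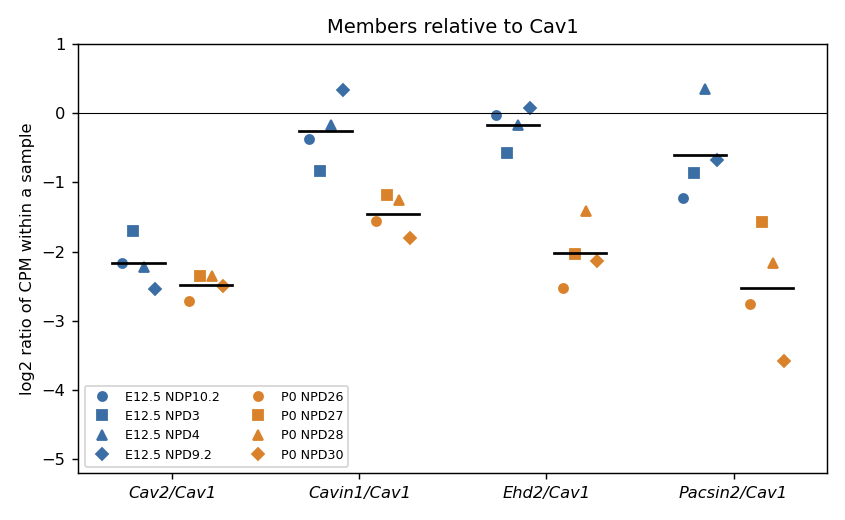
Log2 ratio of CPM to that of Cav1 within each library for 4 genes, with 1 symbol per litter and black lines at the stage means. Stages are apart for Cavin1, Ehd2 and Pacsin2, with changes of -1.19, -1.85 and -1.92, and overlap for Cav2, with a change of -0.32.

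The Brachyury level also varied between litters, with a log2 fold change between the stages of 1.18 and an adjusted p of 0.117 (edgeR), and a difference in the number of notochord-derived cells cannot be told apart from one in Brachyury mRNA per cell. Each gene was also expressed as a percent of Brachyury CPM in the same library, a measure chosen after the data had been seen. Cav1 equalled 12.8, 10.1, 12.2 and 19.4% of Brachyury at E12.5, against 47.7, 50.8, 37.1 and 52.2% at P0. On this scale NPD30 was close to NPD26 and NPD27, and the stages remained apart. The log2 difference of Cav1 was 1.82 (exact permutation p = 0.0286, not adjusted over the 9 genes).

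Cav2 equalled 2.50 to 3.26% of Brachyury at E12.5 and 7.19 to 9.95% at P0, a log2 difference of 1.52 (exact permutation p = 0.0286). Cavin4 lay lower at P0, with a log2 difference of -3.66 (exact permutation p = 0.0286). The coat genes Cavin1 and Cavin2 each gave 0.62, with overlapping litters and exact permutation p-values of 0.286 and 0.229. Cavin3 gave 0.07, and Ehd2, Pacsin2 and Pacsin3 gave -0.03, -0.10 and -0.42. Relative to Brachyury, Cav1 and Cav2 were the genes with P0 litters above all E12.5 litters.

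A second denominator, the summed CPM of 9 notochord and NP markers, was also tried after the data had been seen. It gave Cav1 at 1.75 to 3.77% of the sum at E12.5 and at 13.4 to 17.5% at P0. On that scale Cavin1 was also apart between the stages, at a log2 difference of 1.38 (exact permutation p = 0.0286), so the Cavin1 result differed between the 2 denominators. Of the 8 tested markers in that list, Shh and Foxa1 were lower and Krt19 and Cd24a higher at P0 (all tested genes: 12.0% lower and 16.0% higher). The make-up of the sum thus differed between the stages. Shh averaged 841 CPM of a mean sum of 2868 CPM at E12.5, and 5.94 of 4010 CPM at P0. The part of Shh in the difference between the 2 denominators was not tested.

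**Figure D5:**
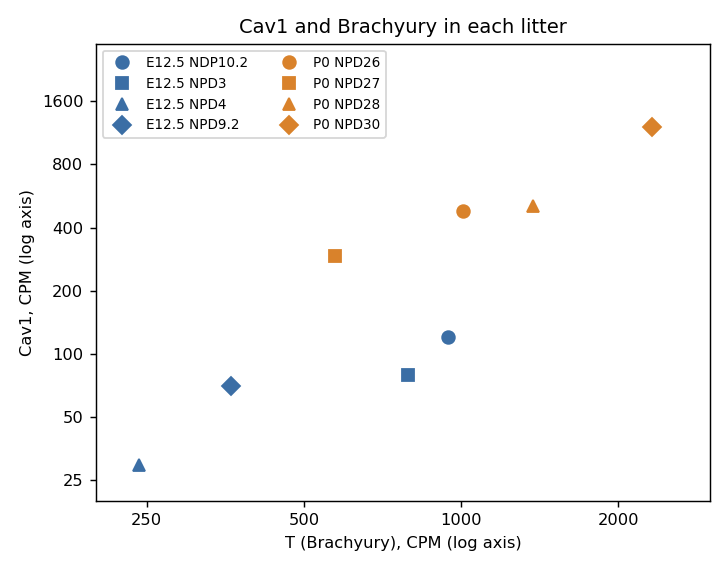
Cav1 CPM against Brachyury (T) CPM in each of the 8 litters, both on log axes. NPD26, at 1007 CPM of Brachyury, has 480 CPM of Cav1, and NDP10.2, at 942 CPM, has 121 CPM. NPD28 and NPD30, at 1372 and 2323 CPM of Brachyury, have no E12.5 litter of like Brachyury level.

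Caveolins are abundant in endothelium and smooth muscle, so markers of these cells were set beside them. Of 9 endothelial markers 2 were lower at P0 and none was higher, where 12.0% of all tested genes were lower and 16.0% higher. The endothelial sum was 90.7 to 188 CPM at E12.5 and 37.3 to 136 CPM at P0. The sum was lowest in NPD30, the litter with the most Cav1. Of 6 smooth muscle and pericyte markers Tagln and Myh11 were higher and Pdgfrb was lower at P0 (all tested genes: 16.0% higher and 12.0% lower). These 6 markers summed to 92.2 to 250 CPM at E12.5 and 139 to 413 CPM at P0, highest in NPD30. The part of endothelial or smooth muscle RNA in the caveolin levels was not tested.

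The genes whose pattern over the 8 libraries was most like that of Cav1 were found from the root mean square difference of log2 CPM, each gene centred on its own mean, among 12640 genes. The 5 nearest were Plet1 (0.21), Perp (0.23), Sostdc1 (0.24), Ppp1r3c (0.26) and Cav2 (0.28). Plet1 encodes a surface protein of epithelial progenitors, Perp a desmosomal membrane protein, Sostdc1 a secreted antagonist of BMP and Wnt signals and Ppp1r3c a glycogen-targeting subunit of protein phosphatase 1. Their log2 fold changes ran from 2.70 for Cav2 to 3.26 for Sostdc1. Cavin1 ranked 106, Cavin2 174, Cavin3 340 and Ehd2 359 by likeness to Cav1. Among the members, Cav1 and Cav2 were nearest to each other (0.28), as were Cavin1 and Cavin2 (0.34). Cavin3 (0.41) and Ehd2 (0.44) were nearest to Cavin1. Pacsin3 was nearest to Ehd2 (0.55), Pacsin2 to Cavin2 (0.56) and Cavin4, far from all, to Pacsin2 (1.63).

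Relatives of the neck proteins that shape other membranes were partly higher. Of 7 genes of the EHD, PACSIN and dynamin families, 4 were higher and none was lower at P0, where 16.0% of all tested genes were higher and 12.0% lower, with a median log2 fold change of 1.06. Ehd3, an ATPase of endosomal recycling, measured 20.7 to 30.5 CPM at E12.5 and 101 to 303 CPM at P0, and its log2 fold change was 2.95 (adjusted p = 0.000426, edgeR). Ehd4, another endosomal family member, had a log2 fold change of 2.93 but was 283, 279 and 131 CPM in NPD26, NPD27 and NPD28 and 49 CPM in NPD30. Pacsin1, the neuronal PACSIN, had 2.13. Ehd4 was thus lowest at P0 in the litter with the least leukocyte RNA, and the part of leukocytes was not tested. Without NDP10.2, 2 of the 7 genes were called higher.

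Of 13 proteins linked to caveolae or to similar membrane domains, 4 were higher and 2 lower, against 16.0% higher and 12.0% lower among all tested genes, with a median log2 fold change of -0.10. Ror1, a receptor tyrosine kinase that binds cavin and caveolin, measured 27.9 to 45.7 CPM at E12.5 and 1.57 to 7.13 CPM at P0, a log2 fold change of -3.25 (adjusted p = 0.000505, edgeR). Src, the kinase that phosphorylates Cav1, was lower by a log2 fold change of -1.02. Prkcd, encoding protein kinase C delta, was higher at 2.35, with 129 to 198 CPM in NPD26, NPD27 and NPD28 and 50 CPM in NPD30. The leukocyte markers were likewise lowest at P0 in NPD30, and their part was not tested. Flot1, a flotillin of membrane domains other than caveolae, rose by 1.76 and was 66.8 to 92.3 CPM in all P0 litters against 11.1 to 31.1 CPM at E12.5. Bves, a membrane protein that binds Cav3, rose by 1.49 at 6 to 8.02 CPM. Flna, Abl1, Fyn, Nos3, Nostrin, Cd36 and Insr were not called.

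The clathrin coat, the other main route of endocytosis, was examined in the same way. Of 14 genes 8 were higher and none was lower (all tested genes: 16.0% and 12.0%), with a median log2 fold change of 0.85. The called genes with the largest changes were Fcho1, a nucleator of clathrin pits (2.03), Cltb, a clathrin light chain (1.72), and Eps15, an adaptor (1.37). Cltc, the heavy chain, measured 280 to 436 CPM at E12.5. At P0 it was 860, 974 and 813 CPM in NPD26, NPD27 and NPD28 but 529 CPM in NPD30. The called genes Picalm, Epn1, Eps15 and Fcho2 were also lowest at P0 in NPD30, the litter with the least leukocyte RNA. The called genes Cltb and Fcho1 were not lowest there, and Ap2m1 was nearly equal in NPD28 and NPD30, at 53.3 and 53.4 CPM. The part of leukocytes in the clathrin genes was not tested.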

How the data were processed

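RNA of 8 litter pools (4 per stage) was sequenced as single-end reads of 100 bases. Per the paper's methods and the submitters' processing notes, the authors aligned with STAR 2.4.0j to GRCm38.p3 and counted Gencode M4 genes with HTSeq, and the deposited values are raw counts per gene. Each litter was treated as a replicate, with the stage taken from its label. Rows that name no gene were left out. Ambiguous reads made up 10.6 to 17.5% of all reads listed at E12.5 and 7.07 to 10.5% at P0.

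Counts were scaled by TMM, filtered with filterByExpr (minimum count 10, minimum total 15) and tested with the edgeR 4.0.16 quasi-likelihood F-test (robust, R 4.3.3), with Benjamini-Hochberg adjustment over 15467 genes and a threshold of 0.05. Log2 ratios (prior count 2) were tested by exact permutation over samples (scipy 1.17.1). Alternatives used DESeq2 1.42.0 and limma 3.58.1, and 4 alternatives were added after the data had been seen. The scripts were tested on simulated data. Positions and lengths came from Gencode M21 on the same build and promoters from RefSeq. Cavin3 had no promoter entry.

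The members and gene lists were chosen with earlier results of these data known. The text names every member, up to 3 called genes with the largest rise and up to 3 with the largest fall from each other list, the 5 genes most like Cav1 and the nearest member to each member. Cltc, Picalm, Epn1, Fcho2 and Ap2m1 were named after their values were seen, as were the uncalled members of the caveola-linked list. Floors and intervals cover counting error or the spread between litters only. The 7 sclerotome, 3 primitive erythroid and 6 neutrophil markers also differed. All 7 and all 3 were lower and all 6 higher at P0 (all tested genes: 12.0% lower and 16.0% higher).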

Additional observations from a re-analysis of the deposited data

Results flagged for a closer look

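Among 20 stage groups of the 10 genes, 3 held a litter whose gap to the nearest other litter passed the 95% critical value of Dixon's test for 4 samples, a rate at which chance marks about 1 in 20 groups. Cav3 at P0 was 2.02 CPM in NPD27, with the other P0 litters at 0 to 0.157 CPM. Cavin2 at P0 was 108 CPM in NPD30, with the others at 50.6 to 56.7 CPM. Pacsin3 at E12.5 was 7.98 CPM in NPD4, below the others at 15.5 to 16.3 CPM.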

How the results depend on the processing

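Cav1, Cav2, Cavin2 and Pacsin2 stayed past the threshold both when any 1 of the 8 litters was dropped and under 10 other choices of scaling, filter, test, genes, depth or litters. With 1 litter left out, the log2 fold change of Cav1 ranged from 2.47 to 3.34, Cav2 from 2.13 to 2.95, Cavin1 from 1.38 to 1.96, Cavin2 from 1.45 to 2.07, Cavin3 from 0.80 to 1.53, Cavin4 from -2.71 to -2.01, Ehd2 from 0.73 to 1.57, Pacsin2 from 1.03 to 1.25 and Pacsin3 from 0.40 to 1.28. Members called higher numbered 4 to 6 and lower 0 to 1, relatives of the neck proteins higher 2 to 4, and all genes called 3612 to 4529. The ratios to Cav1 ranged from -1.38 to -0.99 for Cavin1, -2.05 to -1.68 for Ehd2 and -2.23 to -1.56 for Pacsin2, each at an exact permutation p of 0.0571, the smallest that 3 against 4 litters can give.

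Cavin3 became a call with DESeq2 (1.21), limma-voom (1.33) and no filter (1.25). With at least 10 counts in every sample, which removes Cavin4, 0 members were lower. With the E12.5 litters NDP10.2 and NPD9.2 left out, whose names carry a second number, Cavin3 was called at 2.02 (adjusted p = 0.0345, edgeR) and Cavin4 was not, at -2.14 (0.0779), so that 0 members were lower. In that fit 1 caveola-linked gene was lower, 2 clathrin genes were higher and 2581 of all genes were called, with fewer samples. With NPD26, NPD27 and NPD28 left out (added after the data were seen), which leaves 1 P0 library, the one with the highest Cav1 and assumed to vary as the E12.5 litters do, 1054 of all genes were called, Pacsin3 became a call at 2.00 and Cavin4 was lost at -2.63, leaving 0 members lower. That fit called 2 caveola-linked genes higher and 1 lower, 2 clathrin genes higher and 1 relative of the neck proteins higher.

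Relative to Brachyury (added after the data were seen), Ehd2 was -0.03, Pacsin2 -0.10 and Pacsin3 -0.42, with the sign turned, and Cavin1 and Cavin2, both 0.62, were no longer past 0.05. Relative to the summed notochord and NP markers, Cavin2 (1.37) and Pacsin2 (0.65) were not either. These fits also used another test, an exact permutation over litters with unadjusted p-values. The same permutation test on log2 CPM without a denominator (also added later) gave Cavin1, Cavin2 and Pacsin2 a p of 0.0286 each. The cause of these changes was not tested. No paired analysis was possible because replicate numbers were given in accession order and the litters of the 2 stages are different animals. A comparison of protein sequences was not run. Cav3 and Cavin4 lay near 3 counts at P0, which limits their values.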
